A study of Rattus norvegicus with 8 samples.

Results

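The 9 genes described here encode chemokines that are mostly made without inflammation or that organise lymphoid tissue, with 1 receptor: Cxcl12, Cxcl13, Cxcl14, Cxcl16, Cx3cl1, its receptor Cx3cr1, Ccl11, Ccl19 and Ccl21. They were picked by name, each through the RefSeq accession of its array probe, and all 9 were found among the 12765 named genes of the deposited value table. Each of the 8 samples was hybridised to 1 one-colour rat array. The nerve samples were proximal and distal segments taken 1 day after the left sciatic nerve had been cut at mid-thigh in adult female Sprague-Dawley rats, and the contralateral nerve, whose label also mentions an injection of PBS. The cord samples, taken at day 5, are labelled C-level control and dorsal hemisection. Their labels mention an injection where the protocol mentions an injury, and whether the hemisection is a lesion or the piece dissected is not stated. RNA of 3 animals was pooled for each nerve and each cord sample. The cells were primary Schwann cells from the sciatic nerves of newborn rats of the same strain, freed of fibroblasts, grown with forskolin and pituitary extract, and left unstimulated for 24 h or given S100A8/A9 at 5 µg/ml for 1 h or 24 h. S100A8/A9 is a pair of calcium-binding proteins that neutrophils and monocytes release as an alarm signal.

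Homeostatic chemokines guide cells at rest. CXCL12 holds cells through CXCR4, and the atypical receptor ACKR3 removes it. CCL19 and CCL21 bring dendritic cells and T cells into lymph nodes through CCR7, and CXCL13 draws B cells into follicles through CXCR5. CX3CL1, or fractalkine, is tethered to the membrane of neurons in the central nervous system and is read by CX3CR1 on microglia and macrophages. CXCL16, the ligand of CXCR6, is also made as a membrane protein, and enzymes of the ADAM family shed both. CCL11, or eotaxin, attracts eosinophils through CCR3. CXCL14 is made by many epithelia and stroma, and its receptor is not settled.

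With 1 array per group, the differences have no replicate check and no p-value is given. Levels are log2 values of the deposited table. The ± values are technical standard errors from probes spotted more than once on an array, and they hold nothing of the spread between animals or cultures. A difference of up to about 2 such errors is called within spot error. A difference of at least 1 on the log2 scale, which is 2-fold, was used as a size limit. Where a probe was not well above background in 1 of the 2 samples, the difference is called a bound. It was taken from the probe's own value where that lay above the array's lowest detected value, and then its size is not exact. For the set of genes described here, many but not all values that another processing changed clearly are given. The processings named are the scans matched to the columns, the same scans with normexp background correction, and a scaling that sets housekeeping genes equal. Normexp adds an offset of 50 to every signal. Differences of receptors, enzymes, lymphoid signals, other chemokines and cell markers are given on the scale of the deposited table only. Whether another processing changes their 2-fold calls was not tested. In pooled tissue, fewer cells of a type and less RNA per cell cannot be told apart. The scanner files of 7 of the 8 arrays are recorded under other samples than those whose column they match, as judged by rank correlations of at least 0.999762. Group names here follow the column headings of the table, and only the distal nerve is named alike in both. For samples of the same tissue, which record is right could not be settled from the sources used here. The scans recorded as cord match the columns of unstimulated and 24 h Schwann cells. Neuron markers set the cord columns apart, with a summed log2 level of 17.30 and 15.87 in the cord columns against 10.62 to 11.98 in nerve and 12.96 to 13.28 in the cultures, which is no check of the labels within a tissue. On each array 66.72 to 77.56% of probes were well above background.

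The genes fell into different patterns across the tissues, as the plot of levels shows. Cxcl14, Cxcl16, Cxcl12, Cx3cl1, Cx3cr1 and Ccl11 were well above background on all 8 arrays. Cxcl13 and Ccl19 were so on 5 arrays, and Ccl21 on 4, and none of these 3 was measured above background in any Schwann cell culture. Across the arrays the level of Cxcl12 spanned 1.26 log2 units and that of Cx3cr1 2.18. The span was 5.41 for Cxcl16, 5.77 for Cxcl14, 7.90 for Cx3cl1 and 9.77 for Ccl11. For Cxcl13, Ccl19 and Ccl21 the spans of 7.99, 8.93 and 10.91 end in values within background and have no exact size.

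**Figure D1:**
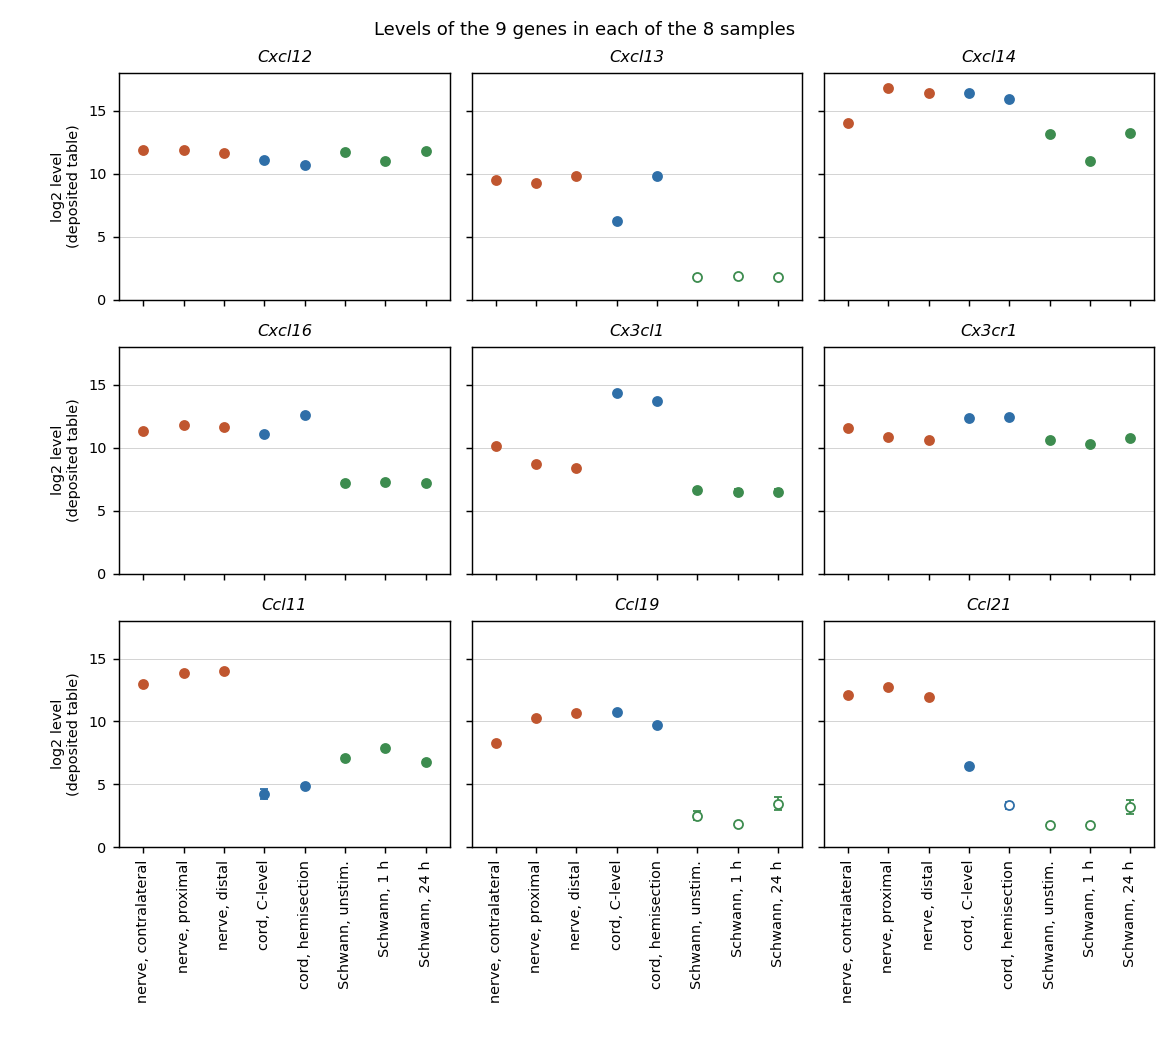
Log2 level of the 9 genes (vertical axis) in the 8 samples (horizontal axis, nerve, cord and Schwann cells in different colours); open points are not well above background and bars are technical spot errors. Cxcl13, Ccl19 and Ccl21 have open points in all 3 Schwann cell samples, and Cxcl14 lies above 15 in both injured nerve segments and both cords.

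Promoter sequence is shown for 5 of the ligands that were at least 2-fold apart in some comparison, a choice made after the values and the sequences had been seen. Of the 9 genes, 8 are in the RefSeq promoter table of build GRCr8, where a window of 300 bases runs from 250 before to 50 after the annotated start. Ccl11 is not. The stretches printed are the 250 bases before the start, 5′ to 3′ on the gene's strand, with capitals on a motif match.

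Cxcl14, chr17:8322900-8323149, plus strand: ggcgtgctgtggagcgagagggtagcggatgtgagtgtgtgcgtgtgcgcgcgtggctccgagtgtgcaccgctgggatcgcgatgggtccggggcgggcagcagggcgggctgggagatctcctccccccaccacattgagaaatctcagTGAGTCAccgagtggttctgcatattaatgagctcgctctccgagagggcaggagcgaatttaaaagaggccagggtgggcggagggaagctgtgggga
Ccl19, chr5:61761165-61761414, minus strand: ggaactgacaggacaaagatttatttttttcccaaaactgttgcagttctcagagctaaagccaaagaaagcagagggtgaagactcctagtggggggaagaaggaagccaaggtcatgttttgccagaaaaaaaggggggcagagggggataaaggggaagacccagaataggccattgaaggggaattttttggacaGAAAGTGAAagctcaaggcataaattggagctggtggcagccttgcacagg
Ccl21, chr5:61777516-61777765, minus strand: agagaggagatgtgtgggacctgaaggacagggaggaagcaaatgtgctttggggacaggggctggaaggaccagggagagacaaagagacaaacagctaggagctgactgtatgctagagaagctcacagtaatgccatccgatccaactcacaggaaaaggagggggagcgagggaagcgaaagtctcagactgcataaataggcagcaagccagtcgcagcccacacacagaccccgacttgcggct
Cxcl13, chr14:13917921-13918170, minus strand: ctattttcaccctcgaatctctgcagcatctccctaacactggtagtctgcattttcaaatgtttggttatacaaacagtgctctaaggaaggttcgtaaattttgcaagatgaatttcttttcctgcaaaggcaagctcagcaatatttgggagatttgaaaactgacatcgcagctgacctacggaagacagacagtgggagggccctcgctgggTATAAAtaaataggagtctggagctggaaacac
Cx3cl1, chr19:10242821-10243070, minus strand: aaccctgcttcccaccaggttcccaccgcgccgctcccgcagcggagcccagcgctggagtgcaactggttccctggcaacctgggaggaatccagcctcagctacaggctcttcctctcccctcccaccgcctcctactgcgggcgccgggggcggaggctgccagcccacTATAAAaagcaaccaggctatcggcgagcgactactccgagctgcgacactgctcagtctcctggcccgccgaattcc

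Each window was searched on both strands for 5 motifs, namely the TATA box, spelled TATAAA, the AP-1 motif, spelled TGANTCA, a part of the interferon response element, spelled GAAANNGAA, the STAT motif, spelled TTCNNNGAA, and the kappa B motif. Of these 40 searches 4 gave a match. The Cxcl14 window holds TGAGTCA with its first base at -99 from the start, and 7.33% of all 33469 promoters hold an AP-1 match. The Ccl19 window holds GAAAGTGAA at -51, where 9.71% of promoters hold a match of the interferon motif. TATAAA begins at -33 in Cxcl13 and at -78 in Cx3cl1, and 14.2% of promoters hold it. Nothing was matched for STAT or kappa B, which 8.87% and 4.18% of promoters hold. The motifs do not overlap one another, and a match is a description of the letters only.

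In the injured nerve at day 1, Cxcl14 and Ccl19 were several-fold higher than in the contralateral nerve, Ccl11 was about 2-fold higher, and Cx3cl1 was lower. In the distal segment 3 of the 9 genes were at least 2-fold higher and 1 was lower, where 14.0% and 14.4% of the 12073 genes measured were (28.3% either way). In the proximal segment 2 were higher and 1 was lower, against 11.8% and 11.9% of 12135 genes (23.7% either way). The median difference of the 9 genes was 0.30 distally and 0.45 proximally, with medians of 0.01 and -0.00 over all genes measured. Both injured segments are set against the same contralateral array, so the 2 comparisons are not independent.

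Cxcl14 measured 14.02 in the contralateral nerve, 16.83 in the proximal and 16.42 in the distal segment. Both injured segments were far above the uninjured side. The differences were 2.81 ± 0.08 proximally (7-fold) and 2.40 ± 0.08 distally (5.3-fold), and the 2 injured segments differed by 0.40 ± 0.05. With housekeeping genes set equal the proximal difference was 3.49. Cxcl14 had its highest level of all 8 arrays in the proximal segment, and the distal segment and the C-level cord, at 16.42 and 16.40, were not apart beyond spot error.

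Ccl19, a CCR7 ligand, measured 8.28 in the contralateral nerve, 10.25 in the proximal and 10.66 in the distal segment. It was 1.97 ± 0.09 higher proximally (3.93-fold) and 2.38 ± 0.09 higher distally (5.19-fold), and the proximal difference was 2.65 with housekeeping genes set equal. Ccl21, the other CCR7 ligand, measured 12.13, 12.71 and 11.92 in the same order. Its differences were 0.58 ± 0.08 and -0.21 ± 0.08, and with housekeeping genes set equal they became 1.26 and 0.18. Under either scaling both Ccl21 differences were smaller than those of Ccl19, the other ligand of the same receptor. The 2 genes lie on chromosome 5 with 1 uncharacterised coding gene between them. On the far side of Ccl19 lies Ccl27, a skin chemokine, which measured 9.73, 9.06 and 9.22 in the 3 nerve samples.

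Cxcl13, the B cell ligand, was close in the 3 nerve samples at 9.49, 9.28 and 9.80. The differences from the contralateral nerve were -0.20 ± 0.09 proximally, which became 0.48 with housekeeping genes equal, and 0.31 ± 0.09 distally. Cxcl12 measured 11.91, 11.93 and 11.65 with its probe of the higher mean, which puts them 0.02 ± 0.08 and -0.26 ± 0.08 from the contralateral nerve, though its other probe gave different values, given further on. Neither of these genes was 2-fold apart in the nerve.

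Ccl11 measured 13.00 in the contralateral nerve, 13.88 proximally and 14.01 distally. The difference was 1.01 ± 0.07 distally (2.01-fold), just inside the 2-fold limit, and 0.88 ± 0.07 proximally (1.84-fold), just outside it, though the latter came to 1.01 from the matched scans, 1.03 with normexp and 1.56 with housekeeping genes equal. The 2 injured segments were 0.13 ± 0.05 apart. CCL11 attracts eosinophils, and of 6 eosinophil markers none was 2-fold higher than in the contralateral nerve. In the proximal segment 4 were lower and in the distal 2, against 11.9% and 14.4% of all genes. From proximal to distal 3 of 5 were higher and none lower, with a median of 1.05, where 1.24% of all genes were higher. In the hemisection cord 4 of 6 were higher than in the C-level cord and none lower, against 10.2% of all genes. The peroxidase gene Epx, at 4.58 in the contralateral nerve, was not well above background in either injured segment. The part of eosinophils in these levels was not tested.

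Cx3cl1 measured 10.13 in the contralateral nerve against 8.68 proximally and 8.37 distally. The 2 injured segments were both lower, at -1.45 ± 0.09 (2.73-fold) and -1.77 ± 0.15 (3.4-fold). With housekeeping genes equal they were -0.77 and -1.37, so that the proximal difference was under 2-fold. Its receptor Cx3cr1 went the same way by less, from 11.60 to 10.85 and 10.62, with differences of -0.75 ± 0.08 and -0.97 ± 0.08, the second just under 2-fold, or -0.07 and -0.58 with housekeeping genes equal. Cx3cl1 lies between Ccl17 and Ccl22, both ligands of CCR4, on chromosome 19. Those neighbours were under 2-fold apart across the nerve. Ccl17 measured 6.90, 7.11 and 6.47 in the contralateral, proximal and distal nerve, and Ccl22 measured 6.95, 7.01 and 6.96.

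Cxcl16, the other tethered ligand, measured 11.33, 11.78 and 11.63. It was 0.45 ± 0.08 higher proximally and 0.30 ± 0.08 higher distally, both under 2-fold. With housekeeping genes equal the proximal difference was 1.13, past 2-fold. Between the 2 injured segments none of the 9 genes was 2-fold apart, where 1.24% of 12193 genes were higher and 1.94% lower (3.18% either way). The gene with the most distance between them was Ccl21, at -0.79 ± 0.06 (distal minus proximal), followed by Cxcl13 at 0.52 ± 0.07. With housekeeping genes equal Ccl21 was at -1.08, past 2-fold.

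Markers of several cell types moved in the same comparison. Macrophage markers were at least 2-fold higher for 8 of 10 genes distally and 6 of 10 proximally, and their summed log2 level was 16.96 in the contralateral, 17.70 in the proximal and 17.85 in the distal nerve. T cell markers were higher for 6 of 7 genes and B cell markers for 5 of 6 in each segment. T cell sums were 10.08, 11.19 and 11.68, and B cell sums 10.61, 11.10 and 11.59. In the contralateral nerve 6 of 7 T cell markers, all but Cd3e, and 4 of 6 B cell markers were well above background. Differences of the remaining genes are bounds and have no exact size. Fibroblast markers were lower for 7 of 9 genes distally and 6 of 9 proximally, and Schwann cell markers for 6 and 4 of 9. Of 5 adipocyte markers 2 were lower distally and 5 proximally, while skeletal muscle markers were higher for 5 of 6 genes distally and 7 of 7 proximally. Muscle sums were 10.39, 15.33 and 12.08 in the contralateral, proximal and distal nerve. From proximal to distal 7 of 7 muscle markers were lower, with a median of -3.69, where 1.94% of all genes were lower. The part of these cell types in the chemokine differences was not tested.

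**Figure D2:**
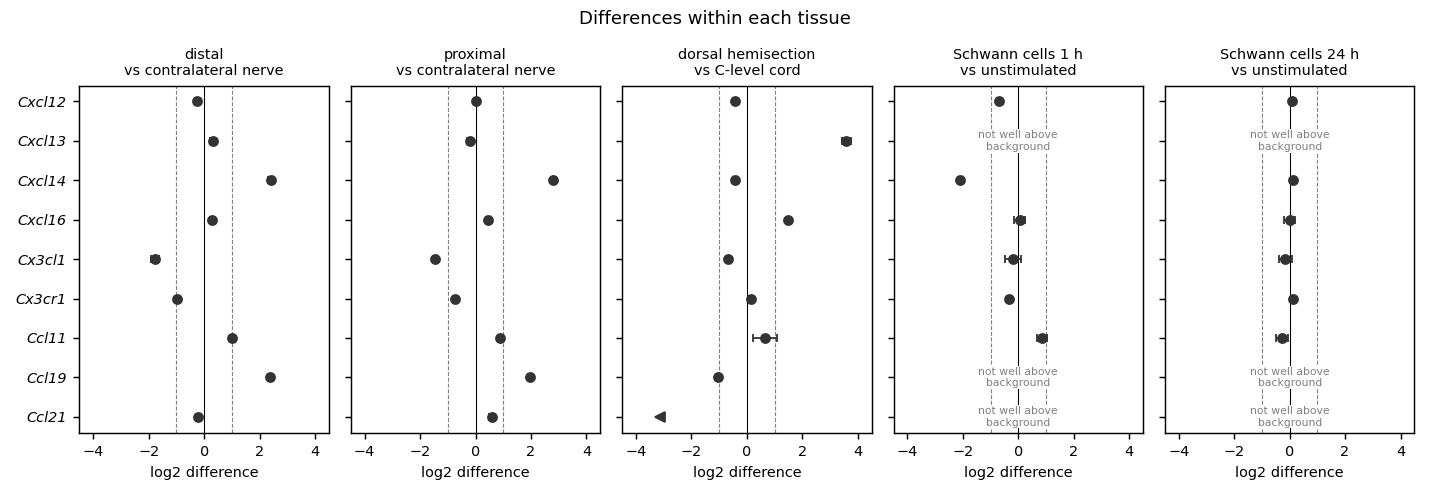
Log2 difference of each of the 9 genes (horizontal axis) in 5 comparisons within a tissue; bars are technical spot errors, the triangle is a bound and dashed lines mark 2-fold. Cxcl14 lies right of the line in both injured nerve segments and left of it in Schwann cells at 1 h, and Cxcl13 stands at 3.58 in the cord.

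In the spinal cord, Cxcl13 and Cxcl16 were higher in the dorsal hemisection sample than in the C-level sample, and the CCR7 ligands Ccl19 and Ccl21 were lower. At least 2-fold apart were 4 of the 9 genes, 2 higher and 2 lower, where 10.2% and 9.26% of 12165 genes were (19.5% either way). The median of the 9 genes was -0.42 and that of all genes -0.04. The C-level sample is labelled a control, and whether it comes from the same level and part of the cord as the other is not stated. Site and injury therefore cannot be told apart here.

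Cxcl13 measured 6.23 in the C-level and 9.81 in the hemisection sample, a difference of 3.58 ± 0.16 (12-fold), or 2.75 with normexp. The hemisection level was that of the distal nerve, at 9.80, and the C-level cord had the lowest of the 5 tissue values. Cxcl16 measured 11.10 and 12.60, a difference of 1.50 ± 0.06 (2.83-fold), and the hemisection sample was its highest array. Ccl19 measured 10.77 in the C-level and 9.73 in the hemisection sample, a difference of -1.04 ± 0.06 (2.06-fold), just past the 2-fold limit. It was under that limit from the matched scans (-0.96), with normexp (-0.88) and with housekeeping genes equal (-0.56). Ccl21 measured 6.50 in the C-level sample and was not well above background in the other, at 3.35. The difference from that background value was -3.15 (8.87-fold) on the scale of the deposited table and has no exact size. With normexp the bound was -0.98 and under 2-fold.

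The other 5 genes were under 2-fold apart. Cx3cl1 measured 14.36 and 13.68, the highest levels of this gene on any array, with a difference of -0.68 ± 0.05. Its receptor Cx3cr1 measured 12.34 and 12.47, also its highest levels, 0.13 ± 0.06 apart. Cxcl14 measured 16.40 and 15.97, and Cxcl12 measured 11.09 and 10.67, differences that came to 0.05 and 0.06 with housekeeping genes equal. Ccl11 measured 4.24 and 4.89, its lowest levels on any array, and the difference of 0.64 ± 0.43 was within spot error. With housekeeping genes equal it was 1.13, past 2-fold.

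The cord samples differed in cell markers too. Macrophage markers were at least 2-fold higher in the hemisection sample for 9 of 10 genes, with summed log2 levels of 15.47 and 17.64, and microglia markers for 4 of 7. B cell markers were higher for 2 of 6 genes, Schwann cell markers for 5 of 8 and fibroblast markers for 5 of 9. Neuron markers were lower for 6 of 7 genes, with a median of -1.34. Adipocyte markers were lower for 4 of 5 genes, and Adipoq went from 9.31 in the C-level sample to not well above background. Skeletal muscle markers were lower for 5 of 7 genes. The part of these in the differences of Cxcl13, Cxcl16, Ccl19 and Ccl21 was not tested.

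In the Schwann cell cultures, Cxcl14 was lower after 1 h with S100A8/A9 and near the unstimulated level at 24 h. It measured 13.15 in the unstimulated culture, 11.06 at 1 h and 13.28 at 24 h. The 1 h culture stood apart from the other two, by -2.10 ± 0.06 from the unstimulated (4.28-fold) and by 2.22 ± 0.06 from the 24 h culture (4.67-fold). At 24 h it was 0.13 ± 0.05 from the unstimulated culture, or -0.13 with housekeeping genes equal. The unstimulated culture is the control of the 24 h time, so at 1 h stimulation and time in culture cannot be told apart. Of 6 genes measured, 1 was lower and none higher by 2-fold at 1 h, where 1.35% and 1.70% of 10906 genes were (3.04% either way). At 24 h none of the 6 was 2-fold apart, where 0.636% of 10998 genes were higher and 0.627% lower (1.26% either way).

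Cxcl12 had the same order at a smaller size with both its probes. The probe of the higher mean measured 11.71, 11.02 and 11.81, which is -0.70 ± 0.06 at 1 h and 0.09 ± 0.05 at 24 h against the unstimulated culture. Cx3cr1 measured 10.62, 10.29 and 10.73, or -0.33 ± 0.06 at 1 h. Ccl11 had the opposite order, at 7.07, 7.92 and 6.79. It was 0.85 ± 0.17 above the unstimulated culture at 1 h, under 2-fold, and the 24 h culture differed from the 1 h culture by -1.13 ± 0.15 (2.19-fold), or by -0.75 and under 2-fold with normexp. Between 24 h and 1 h, Cxcl14 was the 1 gene of 6 that was higher and Ccl11 the 1 that was lower, where 1.86% and 2.04% of 10897 genes were (3.90% either way). The second probe of Cxcl12, which was not used for these counts, was also past 2-fold there, at 1.06 ± 0.07.

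The tethered ligands stayed within spot error in all 3 cultures. Cxcl16 measured 7.18, 7.24 and 7.19, and Cx3cl1 measured 6.65, 6.46 and 6.49. Schwann cell markers were at least 2-fold lower at 1 h for 3 of 9 genes, with a median of -0.63, and for none of 9 at 24 h. Of all genes 1.35% were lower at 1 h and 0.627% at 24 h. The nerve growth factor receptor Ngfr was -1.23 ± 0.02 at 1 h and Gfra3 -2.05 ± 0.06. The 1 h array also had the lowest share of probes well above background, at 66.72%. Fibroblast markers were well above background for 7 of 9 genes in each culture. Their summed log2 levels were 18.85, 18.55 and 18.86 in unstimulated, 1 h and 24 h cells, against 18.21 to 19.66 in nerve. A sum is carried by the highest genes, and the median levels were 11.31, 8.84 and 11.20, against 15.24 to 16.94 in nerve. In unstimulated cells 6 of 9 fibroblast markers were at least 2-fold lower than in the contralateral nerve and 1 was higher, with a median of -5.35. Of all genes 20.8% were lower and 21.6% higher there. The part of any of these in the Cxcl14 difference was not tested.

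Between the contralateral nerve and the C-level cord, the 2 reference tissues here, 6 of the 9 genes were at least 2-fold apart: Cx3cl1, Cxcl14 and Ccl19 were higher in the cord, and Ccl11, Ccl21 and Cxcl13 were lower. These 3 and 3 of 9 genes compare with 18.6% and 19.8% of 12193 genes (38.4% either way). The difference, cord minus nerve, was -8.76 ± 0.41 for Ccl11 (433-fold), -5.62 ± 0.16 for Ccl21 (49.3-fold) and -3.25 ± 0.17 for Cxcl13 (9.54-fold). Sizes near the floor depended on the processing: the value nearest to 0 was -6.29 for Ccl11, with normexp, and -4.39 for Ccl21 and -2.02 for Cxcl13, with housekeeping genes equal. Cx3cl1 was 4.23 ± 0.08 higher (18.7-fold), Ccl19 2.49 ± 0.09 higher (5.61-fold) and Cxcl14 2.38 ± 0.08 higher (5.22-fold), and with housekeeping genes equal they were 5.46, 3.72 and 3.61. The CCR7 ligands thus had opposite tissue orders, Ccl19 with the cord above the nerve and Ccl21 with the nerve above the cord.

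Against the contralateral nerve, the unstimulated Schwann cells were at least 2-fold lower for 6 of 9 genes and higher for none, where 20.8% and 21.6% of 11920 genes were (42.4% either way). The median of the 9 genes was -4.15 and that of all genes 0.22. The difference, cells minus nerve, was -5.93 ± 0.17 for Ccl11 (61-fold), -4.15 ± 0.17 for Cxcl16 (17.8-fold) and -3.49 ± 0.17 for Cx3cl1 (11.2-fold). With housekeeping genes equal these were -4.63, -2.85 and -2.18. For the 3 genes not well above background in the cells the differences were bounds, at most -8.81 for Ccl21, -6.17 for Cxcl13 and -4.96 for Ccl19 on the scale of the deposited table. With normexp the bounds were -5.82, -3.25 and -2.20, all still past 2-fold. Cxcl14, at -0.87 ± 0.08, and Cx3cr1, at -0.98 ± 0.08, were both under 2-fold and became 0.43 and 0.32 with housekeeping genes equal, and Cxcl12 is described with its 2 probes.

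Cx3cr1 is best known as a gene of microglia and macrophages, and it measured 10.29 to 10.73 in the 3 cultures, against 10.62 in the distal nerve. Of the macrophage markers, Cd163, Msr1, Itgam, Mrc1 and Fcgr1a were not well above background in the cultures, nor was the microglial gene Trem2. The other 5 of 10 macrophage markers were well above background in the unstimulated and 24 h cultures and 4 of them at 1 h, Csf1r among them at 6.79 to 7.04. Of 7 microglia markers 5, 4 and 5 were well above background in the unstimulated, 1 h and 24 h cultures, such as Tmem119 at 9.07 to 9.30. The part of such cells in the Cx3cr1 level was not tested. The summed macrophage marker level was 8.87 to 9.26 there, against 16.96 to 17.85 in nerve. In the order of Cx3cr1 levels, proximal nerve, 24 h culture, distal nerve and unstimulated culture followed each other, each within spot error of the next, though the distal nerve differed from the proximal by -0.22 ± 0.06. The value table holds 1 probe for this gene.

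Cxcl12 was measured by 2 probes, for transcripts NM_001033883 and NM_022177, and they did not give the same picture, as the plot of both shows. The first, used above, measured 11.91, 11.93 and 11.65 in the contralateral, proximal and distal nerve, 11.09 and 10.67 in C-level and hemisection cord, and 11.71, 11.02 and 11.81 in unstimulated, 1 h and 24 h Schwann cells. The second measured 13.45, 12.54 and 12.88 in nerve, 10.55 and 10.84 in cord, and 10.12, 9.48 and 10.53 in the cells. With the second probe the injured nerve differed from the contralateral by -0.91 ± 0.07 proximally and -0.57 ± 0.07 distally, where the first gave 0.02 ± 0.08 and -0.26 ± 0.08. Unstimulated Schwann cells differed from the contralateral nerve by -3.33 ± 0.08 with the second probe and -0.19 ± 0.08 with the first. For the C-level cord the differences were -2.89 ± 0.08 and -0.82 ± 0.08. In the cultures at 1 h both probes were lower than in the unstimulated cells, at -0.70 ± 0.06 with the first and -0.64 ± 0.07 with the second. Whether the probes read different transcript ends or differ in specificity was not tested.

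**Figure D3:**
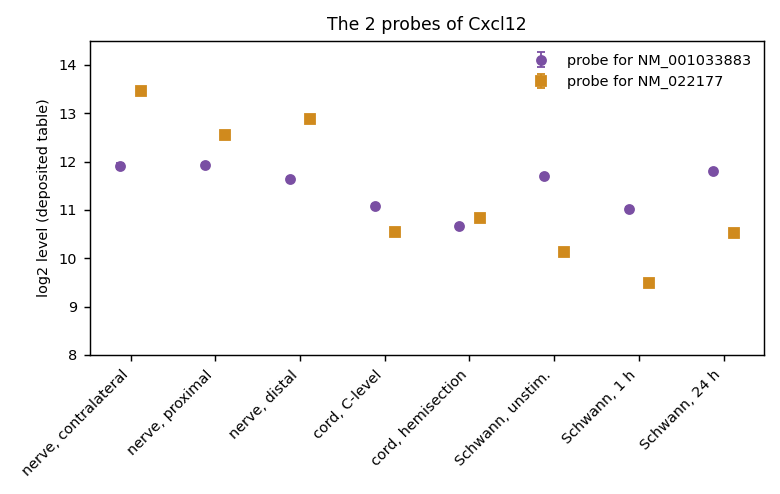
Log2 level of the 2 Cxcl12 probes (vertical axis, starting at 8) in the 8 samples (horizontal axis); bars are technical spot errors and mostly smaller than the points. The probe for NM_022177 falls from 13.45 in the contralateral nerve to 10.12 in unstimulated Schwann cells, where the probe for NM_001033883 stays between 10.67 and 11.93 on all arrays.

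Receptors of these ligands were in the value table for 6 of 9 genes listed, and Cxcr5, Ackr1 and Ackr4 were not analysed here. Cxcr4, the CXCL12 receptor, measured 7.23 in the contralateral nerve, 9.70 proximally and 9.14 distally. It was 2.47 ± 0.15 and 1.91 ± 0.15 higher in the injured segments. In the cord it measured 7.44 in the C-level and 8.80 in the hemisection sample, 1.36 ± 0.11 apart. Ackr3, which clears CXCL12, measured 11.72, 11.60 and 10.99 in nerve, 7.86 and 7.63 in cord and 5.78 to 6.55 in Schwann cells. In the cut nerve the scavenger differed from the contralateral side by -0.12 ± 0.08 proximally and -0.73 ± 0.08 distally, under 2-fold in both segments.

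Ccr7, which reads CCL19 and CCL21, was not well above background in the contralateral nerve, at 3.86, and measured 5.88 proximally and 5.54 distally. The differences from that background value were 2.02 ± 0.60 and 1.68 ± 0.60. Ccr3, the CCL11 receptor, measured 5.77, 5.12 and 7.55 in the contralateral, proximal and distal nerve. It was high in the distal segment alone of the 3, by 1.78 ± 0.30 over the contralateral and 2.43 ± 0.21 over the proximal, and was not well above background in the cord or the cells. Cxcr6, the CXCL16 receptor, measured 5.72, 5.29 and 5.49 in nerve and was not well above background elsewhere. Ackr2, a scavenger of inflammatory CC chemokines, measured 6.22, 5.27 and 5.06 in nerve. Of the 6 receptors 3 were at least 2-fold higher and 1 lower distally, 2 higher and none lower proximally, and 1 of 4 measured was higher in the hemisection cord. None of 3 measured was 2-fold apart in stimulated Schwann cells. Of all genes measured, 14.0% were higher and 14.4% lower distally, 11.8% and 11.9% proximally, and 10.2% and 9.26% in the hemisection cord. In the cells 3.04% were 2-fold apart at 1 h and 1.26% at 24 h.

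**Figure D4:**
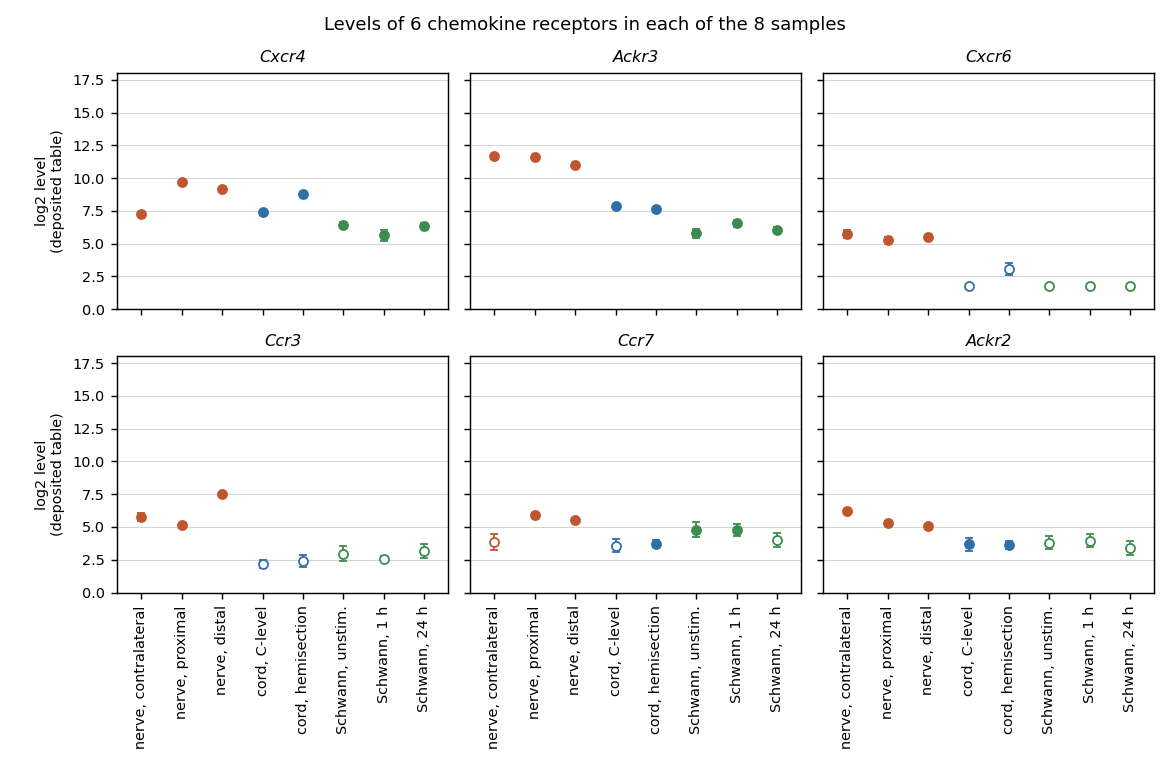
Log2 level of 6 receptors of these ligands (vertical axis) in the 8 samples (horizontal axis, colours by tissue); open points are not well above background and bars are technical spot errors. Cxcr4 is higher in both injured nerve segments than in the contralateral nerve, and Ccr3 stands at 7.55 in the distal segment.

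Of 7 enzymes that cut or shed these ligands 6 were in the table. Dpp4, a peptidase that trims CXCL12 and CCL11, measured 12.30 in the contralateral nerve, 10.71 proximally and 10.61 distally, with differences of -1.58 ± 0.08 and -1.69 ± 0.08. It also differed between the cords, by -1.02 ± 0.09, which is close to the 2-fold limit and was not checked with another processing. Mmp9 was not well above background in the contralateral nerve, at 1.72, and measured 7.51 and 6.32 in the injured segments. The differences from that background value were 5.79 and 4.60 and have no exact size. The shares over all genes given with the receptors hold for the enzyme counts too. In the nerve 1 of 6 enzymes was higher and 1 lower in each segment. In the hemisection cord 3 of 6 were higher and 1 lower: Mmp2 by 2.67 ± 0.09, Mmp14 by 1.94 ± 0.03 and Mmp9 by at least 1.69, with Dpp4 lower. None was 2-fold apart in stimulated Schwann cells.

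Among signals that build lymphoid tissue 7 of 11 were in the table, and 2 of 7 were at least 2-fold higher in each injured nerve segment. Of all genes measured 11.8% were so proximally and 14.0% distally. Ltb, a subunit of membrane lymphotoxin, measured 9.47, 10.48 and 10.65 in the contralateral, proximal and distal nerve. Il7r, the interleukin-7 receptor, measured 5.48, 6.70 and 6.86. In the hemisection cord 2 of 6 were higher, where 10.2% of all genes were: Il7r by 1.15 ± 0.26 and the lymphotoxin receptor Ltbr by 1.03. In stimulated Schwann cells Il7, the ligand of that interleukin receptor, measured 4.76 in the unstimulated and 5.05 in the 1 h culture and was not well above background at 24 h, at most -1.28 against the unstimulated culture. It was 1 of 5 lower there, where 0.627% of all genes were. Of the other homeostatic chemokines and receptors 7 of 12 were in the table. Ccr6, the CCL20 receptor, measured 5.75, 8.47 and 8.99 in nerve, 4.03 and 6.36 in cord, and was not well above background in the cells. It was 2.72 ± 0.30 and 3.23 ± 0.30 higher in the proximal and distal segments and 2.33 ± 0.41 higher in the hemisection cord. In the same 2 segments Ccr10 was 1.22 and 1.73 above a contralateral value within background, so these have no exact size. Ccl27 differed between the cords by -1.15.

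The profiles nearest to each gene were sought among 5807 named genes that span at least 2 log2 units, by the root mean square difference of profiles centred over the 8 arrays. These are descriptions, and what the 8 points share is their tissue, with 3 nerve, 2 cord and 3 culture arrays. Among the 3 profiles nearest to Cxcl16 were those of Csf1r, the receptor of macrophage growth factors (0.274), and Slco2b1, an organic anion transporter (0.317). Cx3cl1 lay nearest to Cxxc4 (0.319), Tmem178b (0.356) and Snph, a protein that anchors mitochondria in axons (0.367). Ccl11 lay nearest to Tpsab1 (0.668) and Cpa3 (0.941), both mast cell proteases, and Ccl21 to Sfrp2, a secreted Wnt antagonist (0.989). Cxcl13 lay nearest to Bst2, an interferon-induced antiviral protein (0.571), and Ccl19 to Aqp9, a water and glycerol channel (0.564). Cxcl14 lay nearest to Apln, the peptide apelin (0.491), then to Mt1, a metallothionein (0.701). Cx3cr1, with its small span, lay nearest to Rassf2 (0.100). Cxcl12 spanned under 2 units and has no such list. Among the 9 genes the profiles of Cxcl13 and Cxcl16 had a Pearson r of 0.97 over the 8 arrays with a root mean square difference of 1.53, and Cx3cl1 and Cx3cr1 had 0.97 and 2.21.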

How the data were processed

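RNA of the 8 samples was labelled with Cy3 and hybridised to 1 array each. The authors deposited a table of log2 values, every column with a median of 8.03, and no source used here states its normalization. Scanner files with spot intensity, deposited beside it, were made with Feature Extraction, version 10.7.3.1 by their headers and 10.5 per the submitters' processing notes. Per the file headers the design is of build rn4, so no coordinate of it is printed. Each scan was matched to a column by rank correlation, since 7 are recorded under other samples. The scans, through the deposited flags (other values), gave the well above background call (at least 0.5 of a probe's spots) and the spot error (pooled in 20 signal bins), not the levels.

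Of 24894 probes in the table, a RefSeq symbol was found by accession for 15213, giving 12765 genes. For a gene with several probes the one with the highest mean was used. Where 1 side was not well above background, it was set to the higher of its own value and the lowest value of a probe well above background, and the difference is a bound. The number of arrays, 1 per group, limits the precision and allowed no test. Counts at 2-fold are given beside the same over all genes measured. The script was tested on simulated data.

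All 9 members are named, with list genes past 2-fold, all receptors and, for members spanning at least 2 units, the 3 nearest profiles, except that some genes these rules select are not reported here. Marker genes, Ccl17 and Ccl22 with single values outside these were chosen after their values were seen. The members and lists were chosen with earlier results of these data known, the motifs after the promoters had been read. Alternatives were the matched scans at the 75th percentile, the scans as recorded, normexp (offset 50, limma 3.58.1, R 4.3.3) with quantile normalization, the mean of a gene's probes, stricter and no filters, and equal housekeeping genes.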

Additional observations from a re-analysis of the deposited data

Results flagged for a closer look

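Cxcl14 in Schwann cells stood on opposite sides of the unstimulated culture at the 2 times of stimulation, at -2.10 after 1 h and 0.13 after 24 h on the log2 scale. With housekeeping genes set equal the value at 24 h was -0.13, on the same side as that at 1 h. Both comparisons use the same unstimulated array, and the difference between the times was not tested for want of replicates.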

How the results depend on the processing

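No paired analysis was possible because each group had 1 array. Of 26 differences of the 9 genes that reached 2-fold, 25 still did when taken from the matched scans, set to their 75th percentile, 23 with normexp, 26 with the mean of all probes or no filter, 22 of 22 measured with both arrays well above background and 24 with housekeeping genes set equal, and none of them changed sign. With the scans as recorded under each sample, 22 were measured and 9 reversed: Cxcl14 -4.67 and Ccl19 -6.85 in the proximal nerve, Cxcl14 -2.42, Cx3cl1 -7.43, Ccl11 0.85 and Ccl19 -7.00 between cord and nerve, and Ccl11 8.33, Ccl19 0.48 and Ccl21 8.57 between Schwann cells and nerve. Of the 22 measured, 8 were still 2-fold apart in the same direction. By the match to columns, the scans recorded as cord are those of Schwann cells. The scan recorded as the contralateral nerve is that of the hemisection cord. Several of these comparisons thus set other tissues against each other and are no check of the processing. The counts of genes at 2-fold with the scans as recorded were 7 for the proximal nerve, 7 between the segments, 0 in the cord, 4 at 1 h, 6 at 24 h and 6 between 24 h and 1 h. In the same order the shares over all genes measured were 46.2%, 37.2%, 1.49%, 22.7%, 42.5% and 36.0%.

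With housekeeping genes equal the count was 5 in the proximal nerve (5 higher, none lower), where 36.4% of all genes were 2-fold apart. There Cx3cl1 became -0.77, and Cxcl16, Ccl21 and Ccl11 became 1.13, 1.26 and 1.56. Between the segments the count was 1, Ccl21 at -1.08, where 4.32% of all genes were 2-fold apart. With that scaling the median of all genes was 0.67 proximally (-0.00 as deposited), 0.40 distally (0.01), 0.44 in the cord (-0.04), 1.14 between cord and nerve (-0.09) and 1.54 between Schwann cells and nerve (0.22). All genes then split as 3942 higher and 516 lower proximally against 1429 and 1450, as 2861 and 1076 distally against 1687 and 1735, and as 2564 and 434 in the cord against 1244 and 1127. With normexp the count was 2 in the cord, where Ccl19 and Ccl21 became -0.88 and -0.98, and 1 between 24 h and 1 h, where Ccl11 became -0.75, and all genes numbered 1015 higher and 986 lower distally. With no filter the count was 1 at 24 h (2.95% of all genes) and 4 between 24 h and 1 h (6.29%). With both arrays well above background it was 3 for Schwann cells against nerve (35.5%). Fewer genes are measured there, and the cause of the other changes was not tested. Signal over background limits Cxcl13, Ccl19 and Ccl21 in the cultures and Ccl21 in the hemisection cord.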
